A study of Mus musculus with 7 samples.

Results

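CTCF is a zinc-finger protein that binds DNA through a long, directional motif. It is best known as an insulator: at many of its sites the ring-shaped cohesin complex stops while it extrudes DNA, so that sites facing each other become the anchors of chromatin loops. Most such sites are used in many tissues, and in the liver they frame the domains in which enhancers of metabolic genes act. The peaks described here are the CTCF peaks of female mouse liver on the autosomes, and they were taken as every peak that the list of CTCF sites places on chromosomes 1 to 19. There were 67010 of them, 97.6% of the 68667 CTCF peaks and a part of the 137323 peaks in the lists of both antibodies of the study.

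The livers came from 8-week-old females of the outbred CD-1 stock, Crl:CD1(ICR) and the labels name no treatment or transgene. Liver nuclei were crosslinked with formaldehyde and sheared, and the chromatin was precipitated with an antibody to CTCF (4 libraries) or, in the rest of the study, to the cohesin subunit Rad21 (3 libraries). The reads of the 4 CTCF libraries were pooled before peaks were called, so the list is 1 sample, and the spread between mice and the depth of each library cannot be read from it. Whole-liver nuclei come from several cell types, so a site bound in fewer cells and a site bound more weakly cannot be told apart. Quartiles below are a spread over peaks, and the 95% Wilson intervals of shares cover counting error only. A list of binding sites holds no expression, so the tissue could not be checked by the levels of marker genes.

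Each peak carries a fold enrichment, which is the read pileup at its summit over the local background, and a −log10 q-value; no input library is named in the sources used here. The median fold enrichment was 6.03, with quartiles of 3.74 and 12.96, a lowest value of 1.63 and a highest of 45.1. The median −log10 q was 26.7, and 48743 peaks (72.7%) reached 10. The median width was 402 bp (quartiles 289 and 501 bp), and all peaks together covered 28.4 Mb or 1.19% of the sequenced autosomal bases. As shown by the plots of strength, width and spacing, the list had a large body of weak peaks and a long shoulder of strong ones: 6028 peaks (9.00%) had a fold enrichment of 20 or more. Stronger peaks were wider, with a Spearman rho of 0.671 across peaks, which share 1 pool and are not independent replicates.

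**Figure D1:**
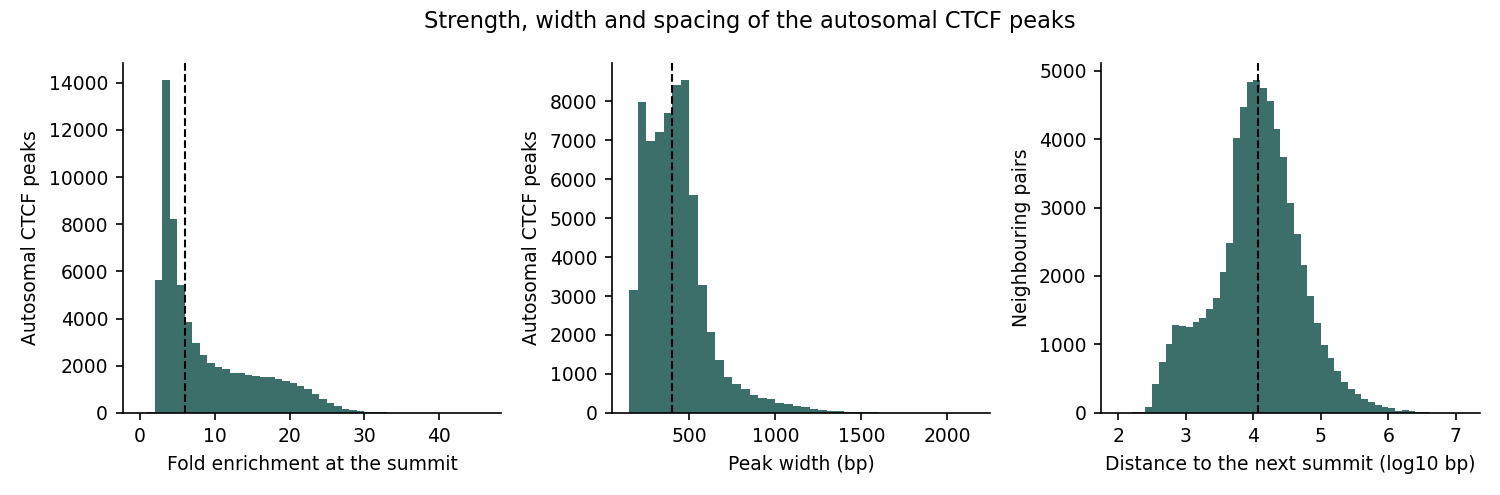
Histograms of the fold enrichment at the summit, of the peak width in bp and of the distance to the next summit (log10 bp) for the 67010 autosomal CTCF peaks. Dashed lines mark the medians of 6.03, 402 bp and 11.9 kb, and the spacing plot rises in a step near 5 kb.

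To show what the strongest sites look like, a matrix of 20 bp was learned from the 1000 peaks of highest fold enrichment on odd-numbered autosomes. Its consensus was NNGCCACNAGGGGGCGCNNN, where N is a position at which no base reached a majority. The same procedure on even-numbered autosomes gave NGGCCACNAGGGGGCGCNNN. The strongest peak of each autosome had a fold enrichment of 31.1 to 45.1, and 18 of these 19 peaks held a match to the matrix that was learned on the other autosomes. Of the 19, 14 lay in intergenic sequence and 5 in a promoter, and 5 were more than 50 kb from the nearest start of a protein-coding gene. Of those printed here, the first stands upstream of Med4, which encodes a Mediator subunit, and those named for Kifc5b (a kinesin) and Rapgef1 (an exchange factor for Rap GTPases) lie in promoters too. The sites named for Epm2aip1, Fut8 (a fucosyltransferase) and Ccdc50 are intergenic. Capitals mark the 20 bp match, coordinates are of mm9, and each site is written 5′ to 3′ on the strand given.
Med4 site, chr14:73909691-73909730, plus strand: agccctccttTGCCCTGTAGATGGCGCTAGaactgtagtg
Epm2aip1 site, chr9:111192508-111192547, minus strand: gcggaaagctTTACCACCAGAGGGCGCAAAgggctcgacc
Kifc5b site, chr17:27053720-27053759, plus strand: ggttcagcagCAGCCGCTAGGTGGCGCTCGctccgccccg
Rapgef1 site, chr2:29475146-29475185, plus strand: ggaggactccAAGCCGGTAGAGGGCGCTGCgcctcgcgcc
Fut8 site, chr12:78882545-78882584, minus strand: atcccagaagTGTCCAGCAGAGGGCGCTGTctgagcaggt
Ccdc50 site, chr16:27457551-27457590, minus strand: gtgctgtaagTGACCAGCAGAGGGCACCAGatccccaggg

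The 6 sites were picked from the 19 after values were seen, to show promoter and intergenic sites over a range of fold enrichment. Fold enrichment was 38.2 at Med4, 37.7 near Epm2aip1, 37.0 at Kifc5b, 36.8 at Rapgef1, 32.4 for the site 371 kb from Fut8 and 31.1 near Ccdc50. Of those not printed, the peak near Ifna13, an interferon gene, had the highest fold enrichment of all, 45.1. Others were the peaks nearest to the starts of Glrx3 (35.6), Gm5174 (35.5), Kcnk18 (35.2), Accn1 (34.8), Trpv4 (34.7), B3galnt2 (33.5), Cog6 (33.1), Gins4 (33.0), Irak2 (32.2), Eif4b (31.6) and Wac (31.1). Among the 6 printed sites, that of Ccdc50 matched the matrix best, with 25.04 bits, and that at Med4 less well, with 17.7 bits. Over all autosomal peaks the Spearman rho of score and fold enrichment was 0.556, and it was 0.252 among peaks with a motif.

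Over all peaks, a motif was counted if the best score in the 100 bp to each side of a summit passed the level that 1% of peak-free windows at a distance of 1 kb reached. On even-numbered autosomes 13592 of 30496 peaks had a motif (44.6%, 95% Wilson interval 44.0 to 45.1%), against 1.02% of 57466 flanking windows. Peaks with a motif had a median fold enrichment of 11.4 (quartiles 5.75 and 17.8), and those without had 4.40 (3.32 and 7.15). The matrix was learned only from peaks of high fold enrichment, and the part of this choice in the difference was not tested. The motif lay close to the summit, with a median distance of 17 bp, and 92.5% of motifs were within 50 bp. The strands were used about equally, with 49.6% of motifs on the plus strand (49.0 to 50.2%). When peaks were ordered by fold enrichment and cut into 10 equal groups, the median distance fell from 28 bp in the weakest group to 14 bp in the strongest. A CpG, the dinucleotide whose methylation can block CTCF, was inside 41.7% of the motifs and inside 53.3% of those in the strongest group. The median fold enrichment was 13.1 for motifs with a CpG and 10.3 for those without.

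**Figure D2:**
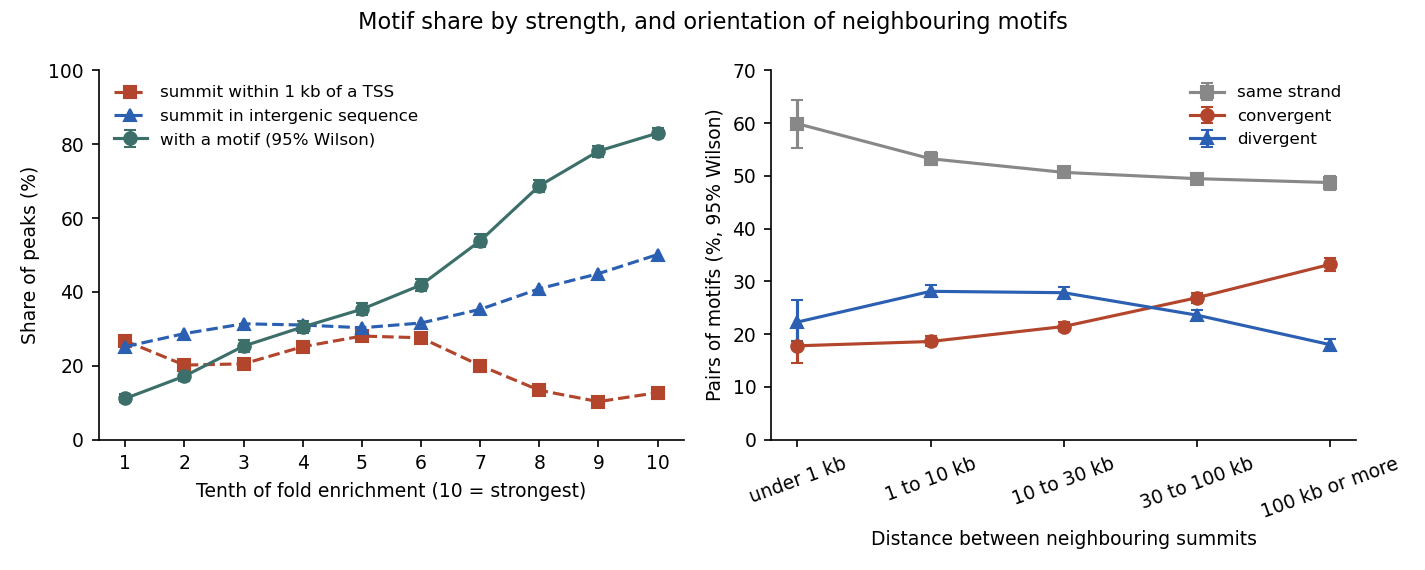
Left, the share of peaks with a motif (even-numbered autosomes, 95% Wilson intervals) and with a summit in a promoter or in intergenic sequence, in 10 equal groups of fold enrichment from the weakest (1) to the strongest (10). Right, the orientation of neighbouring motifs by the distance between their summits, as a percentage of pairs with 95% Wilson intervals. The motif share rises from 11.1% to 83.0%, with a matrix learned only from peaks of high fold enrichment. The convergent and divergent lines cross between 10 and 100 kb.

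Some motifs recurred letter for letter. The 28466 motifs compared, which left out 1 autosome, had 6567 different cores of 15 bp, and 3511 cores were found once. The most frequent core stood at 1385 peaks, and it is printed with the bases that most often surrounded it.
Most frequent 15 bp core: GCCAGAAGAGGGCAT
Its most frequent surroundings: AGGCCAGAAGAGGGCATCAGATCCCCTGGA
Repeats were not annotated here. Over the 10 bp after the motif, 66.4% of the peaks on average had the most frequent base, against 33.5% for cores found once. Peaks with this core were weaker, with a median fold enrichment of 6.23 (quartiles 4.40 and 10.2) against 11.1 (5.61 and 17.7) for cores found once. They were also narrower, at a median of 353 bp against 442 bp, and 2.31% of them lay in a promoter, against 15.8%. The 6 most frequent cores together accounted for 4093 peaks, 14.4% of those with a motif, at a median fold enrichment of 5.61.

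H19 and Igf2 on chromosome 7 are the textbook locus of CTCF as an insulator. H19 is a noncoding RNA expressed from the maternal chromosome, Igf2 encodes a fetal growth factor expressed from the paternal one, and CTCF binds the unmethylated maternal copy of the control region upstream of H19. This locus was chosen after the values were seen. The list had 5 peaks between the genes, whose starts are 88.7 kb apart in mm9. The peaks nearest to H19 were 2.21 and 3.79 kb upstream of its start, with fold enrichments of 8.61 (width 869 bp) and 5.56 (width 428 bp). The strongest of the 5, with 24.6, lay 32.6 kb upstream of H19, and those at 44.4 and 52.6 kb had 4.95 and 4.40. None of the 5 had a motif at the threshold used. When the whole length of the 2 peaks next to H19 was scanned at the looser threshold exceeded by 5% of flanking windows, they held 3 matches, all on the minus strand, with 10.4, 10.6 and 11.5 bits. These peaks are longer than the flanking windows, so 5% is not the background rate of this scan.
H19 upstream site A, chr7:149766201-149766240, minus strand: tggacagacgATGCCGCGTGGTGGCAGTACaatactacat
H19 upstream site B, chr7:149766656-149766695, minus strand: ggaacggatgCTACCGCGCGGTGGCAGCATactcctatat
H19 upstream site C, chr7:149767926-149767965, minus strand: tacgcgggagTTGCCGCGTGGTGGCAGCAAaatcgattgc
All 3 matches had a CpG inside the motif. They scored below the threshold of 14.3 bits, and sites B and C lay 421 and 112 bp from the summits of their peaks, outside the 100 bp searched for a called motif.

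Where the peaks fell in genes differed from where the bases are. Each summit was given 1 feature of the mm9 annotation, with promoter defined as within 1 kb of the start of a protein-coding transcript. Promoters held 13722 summits (20.5%, 20.2 to 20.8%) although they make up 2.36% of the sequenced autosomal bases, which is 243 summits per Mb of promoter. Introns held 26614 summits (39.7%, 39.3 to 40.1%) against 37.3% of the bases, or 29.8 per Mb. Intergenic sequence held 23422 (35.0%, 34.6 to 35.3%) against 57.5% of the bases, or 17.02 per Mb. Coding exons had 1368 summits, untranslated exons 1047 and non-coding exons 837, each at 1.49 to 1.87 times their share of the bases. Far from genes, 6767 summits (10.1%) were 100 kb or more from any protein-coding start. The median distance over all summits was 13.6 kb.

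Promoter peaks were wider and weaker than intergenic peaks, and fewer had a motif. Their median fold enrichment was 5.20 (quartiles 3.63 and 8.63) and their median width 503 bp, while intergenic peaks had 7.71 (4.12 and 15.7) and 401 bp. A motif was present in 15.1% of promoter peaks (14.2 to 16.02%), in 49.4% of intronic peaks (48.5 to 50.3%) and in 55.6% of intergenic peaks (54.6 to 56.5%). The change was abrupt with distance, from 15.04% at 100 bp to 1 kb from a start to 51.6% at 1 to 5 kb and 51.1% beyond 100 kb. The 100 bp to each side of promoter summits had a median GC content of 64.7% and a mean of 15.6 CpG, against 48.3% and 3.25 CpG at intergenic summits. The part of base composition in this difference was not tested. The strongest promoter peaks differed less from other strong peaks: of 784 with a fold enrichment of 20 or more, 488 had a motif (62.2%), against 83.7% of equally strong peaks elsewhere. Of the 1148 peaks of 1 kb or wider, 87.9% were promoter peaks and 14.4% had a motif. The widest was 2127 bp long, next to a start of Zdhhc14, a palmitoyltransferase gene, with a fold enrichment of 6.49. Next came 2073 bp at Elf2, an ETS factor gene, and then 1980 bp at Setd7, a lysine methyltransferase gene.

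**Figure D3:**
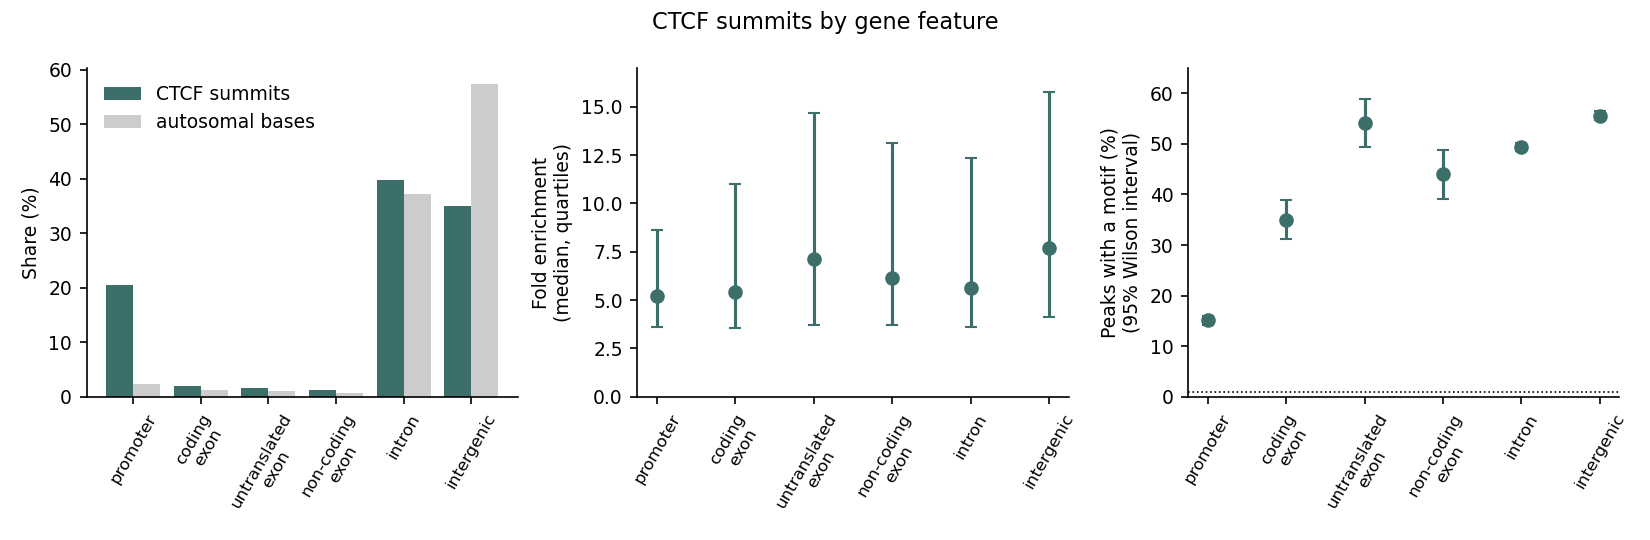
CTCF summits by gene feature: the share of summits beside the share of sequenced autosomal bases (bars, %), the median fold enrichment with its quartiles, and the share of peaks with a motif on even-numbered autosomes with 95% Wilson intervals. The dotted line is the 1% of flanking windows set as background, and promoters have 20.5% of the summits on 2.36% of the bases but a motif in 15.1%.

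Counted by gene, 11219 of 21410 autosomal protein-coding genes had a summit within 1 kb of a start (52.4%, 51.7 to 53.1%), with a median of 166 bp between the strongest such summit and the start. The 15 genes with the highest fold enrichment have varied functions. Med4 had 38.2, Kifc5b 37.0, Rapgef1 36.8 and Sucla2, a subunit of succinyl-CoA ligase, 36.6. The Med4 and Sucla2 peaks lie 14.9 kb apart on chromosome 14. Wdr38 followed with 34.6, Lsm11 (histone mRNA processing) with 34.1, Abca14 (a transporter) with 33.7 and Adprhl2 (an ADP-ribosylhydrolase) with 33.7. Acbd4, Gins4 (DNA replication), 2310035K24Rik, H2-DMa (peptide loading of MHC class II), Vps18 (vesicle sorting), Mrpl17 (mitochondrial ribosome) and Irak2 (innate immune signalling) completed the first 15 with 32.2 to 33.3. Of the 15 summits, 14 had a motif, Vps18 being the exception, and 13 were upstream of the start. Among promoter peaks with a fold enrichment of 20 or more, 62.2% had a motif. Over all bound promoters, most of them much weaker, 16.2% had a motif and 44.8% of summits were upstream.

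Genes of several large complexes had promoter summits more often than the 52.4% of all genes, by intervals that exclude this share. Of 51 genes with Psm symbols, named for the proteasome, 47 had a promoter summit (92.2%, 81.5 to 96.9%). Of 36 genes whose symbols start with Ndufa, Ndufb or Ndufs, named for respiratory complex I, 27 did (75%, 58.9 to 86.2%). Not every gene with such a symbol need encode a subunit. Among genes of cohesin, its loaders and regulators, and CTCF, the count was 15 of 16 (93.8%, 71.7 to 98.9%), with a median fold enrichment of 7.04 against 6.28 for all bound promoters. Esco1, which acetylates cohesin, had a fold enrichment of 28.0, Pds5b 27.8, and the cohesin subunits Stag1 and Smc3 24.6 and 24.1, while Rad21 had 5.20, Mau2, of the loader, 4.41, Cdca5 4.04 and Esco2 3.24. The Ctcf promoter itself had a peak of 17.3, at 168 bp from the start, without a called motif. Smc1b was the member without a promoter summit, while Rec8 and Stag3, like Smc1b genes of meiotic subunits, had 2.89 and 2.58. The peaks of Stag3, Rec8, Esco2 and Ctcfl had a −log10 q of 2.98, 3.49, 7.47 and 9.05, and the share of this list at 10 or more was not counted. Zinc-finger genes named Zfp had a summit in 250 of 365 cases (68.5%, 63.6 to 73.0%) and Slc transporters in 199 of 358 (55.6%, 50.4 to 60.6%). Genes whose symbols start with Rpl or Rps had one in 78 of 144 (54.2%, 46.0 to 62.1%). The intervals of the last 2 sets include the 52.4% of all genes. The Rpl and Rps symbols also take in copies such as Rpl27a-ps2, so this is not the share of ribosomal protein genes alone.

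Genes of liver identity were counted in lists by function. Of 17 hepatocyte transcription factors, 15 had a promoter summit (88.2%, 65.7 to 96.7%), with a median fold enrichment of 4.37. Foxa3 (18.5), the oxysterol receptor gene Nr1h3 (18.4), Cebpa (13.03) and Cebpb (11.3) had the strongest, the lowest was 2.05 at Rxra, and Foxa2 and Onecut2 had none. Of 25 gene entries for 24 plasma proteins made by hepatocytes (Trf has 2), 9 had one (36.0%, 20.2 to 55.5%), and this interval includes the 52.4% of all genes. Alb, the most abundant plasma protein, had no summit in its promoter or body, nor did Apoa2, Apoc3, Hp or the fibrinogen genes Fga and Fgg. The strongest of the 9 were Apob, of the apolipoprotein of LDL, with 19.8 at 966 bp inside the gene, and Itih1 with 14.3. Of 100 Cyp genes, the cytochromes P450, 25 had a promoter summit (25%, 17.5 to 34.3%), of 59 Serpin genes, the protease inhibitors, 11 (18.6%, 10.7 to 30.4%), and of 21 Ugt genes, which encode glucuronosyltransferases, 3 (14.3%, 4.98 to 34.6%). The intervals of these 3 families lay below 52.4%, and that of the hepatocyte transcription factors above it. Among the bound factors, Rxra (3.35), Prox1 (7.13), Nr0b2 (7.62), Nr5a2 (8.91) and Onecut1 (9.53) had a −log10 q under 10. The shares of lists and families were not counted at a −log10 q of at least 10, where 45.3% of all genes had a summit. Neuron genes, of a tissue not sampled, had 6 of 19 (31.6%, 15.4 to 54.0%), led by Rbfox3 with 24.7, so the interval overlapped that of the plasma proteins. The markers of liver cell types gave counts too small to compare: 2 of 5 for hepatocytes (Apoa1 and Hnf4a), 0 of 4 for Kupffer cells, 1 of 5 for endothelial cells (Kdr), 2 of 5 for stellate cells (Lrat and Reln) and 0 of 5 for bile duct cells.

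**Figure D4:**
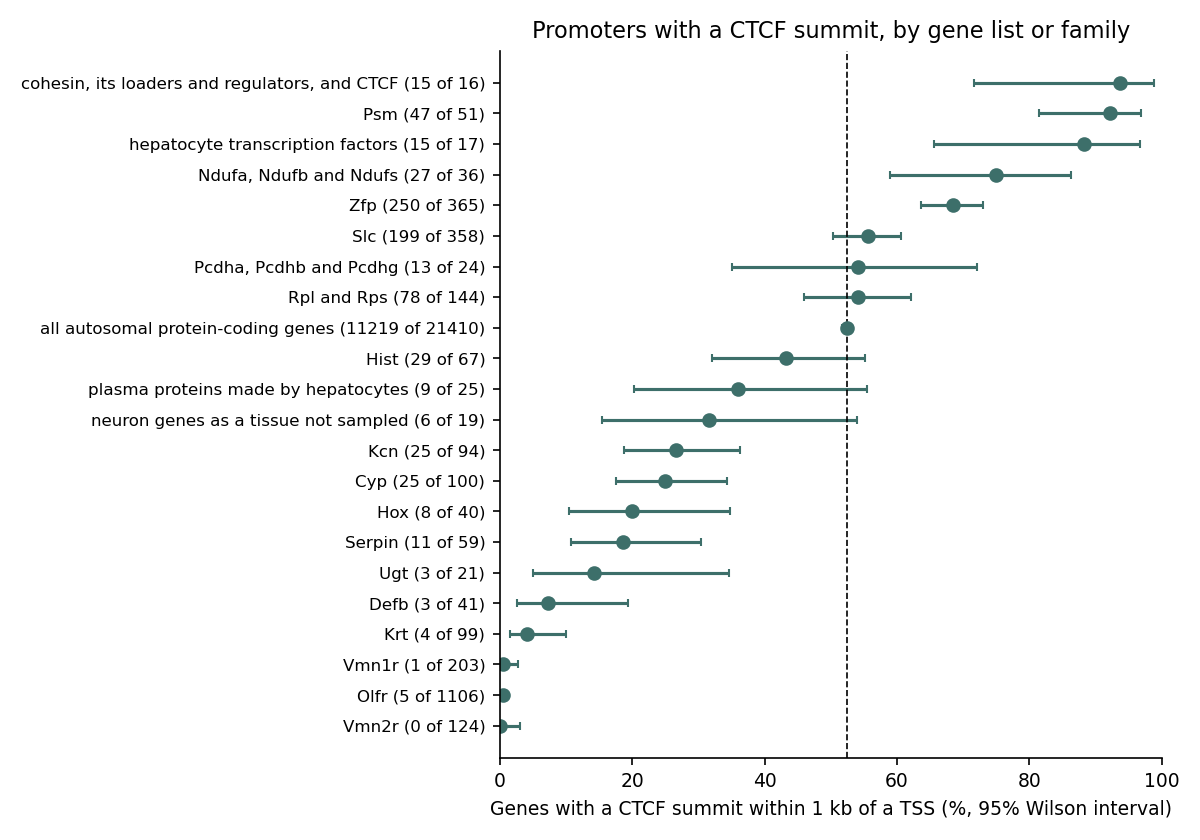
Share of the genes of each list or family that have a CTCF summit within 1 kb of a start (points, %) with 95% Wilson intervals; k of n is in each label and the dashed line is the 52.4% of all autosomal protein-coding genes. Proteasome, cohesin and hepatocyte factor genes lie above 80% and receptor families of smell and pheromones below 1%.

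Several families of tandem genes had few bound promoters. The olfactory receptors (Olfr) had 5 bound promoters among 1106 genes (0.452%, 0.193 to 1.05%). The pheromone receptors had 1 of 203 in the Vmn1r family and 0 of 124 in the Vmn2r family, which allows a share of up to 3.005% by the interval. Genes whose symbols start with Krt, which are not keratin genes alone, had 4 of 99 (4.04%, 1.58 to 9.93%). Beta-defensin genes (Defb) had 3 of 41 (7.32%, 2.52 to 19.4%). Hox genes, the developmental regulators of body position, had 8 of 40 (20%, 10.5 to 34.8%), but with a median fold enrichment of 17.6 and a motif in 62.5%, against 6.28 and 16.2% for all bound promoters. Within the 4 Hox clusters there were 27 summits, 18 of them with a motif, against 29346 of the 67010 peaks of all autosomes. The Hoxa cluster, 106 kb long, had 6 summits of 11.1 to 25.2, Hoxb had 11 of 4.95 to 25.05, Hoxc 4 of 5.90 to 22.1 and Hoxd 6 of 4.21 to 20.1. The clustered protocadherins had 13 of 24 (54.2%, 35.1 to 72.1%) and histone genes (Hist) 29 of 67 (43.3%, 32.1 to 55.2%), both with intervals that include the share of all genes. Potassium channel genes (Kcn) had 25 of 94 (26.6%, 18.7 to 36.3%), and the Psg family, glycoproteins of pregnancy, had 2 of 14 (14.3%, 4.01 to 39.9%).

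Summits within gene bodies were counted next. Of the 21410 genes, 12864 (60.1%) had at least 1 summit between their annotated ends, and 572 had 10 or more. Gene models that span other genes led, with 344 summits in the 4435 kb of Gm20388 and 132 in the 3009 kb that this annotation gives Fgfr2. The nuclear receptor gene Rora had 50 in 734 kb, Arhgap26 had 50 in 775 kb and Sox5 had 43 in 954 kb. Arfip1 (43), Zbtb20 (38), a repressor gene active in hepatocytes, Prkce (36), Fry (33) and Pde4d (33) completed the first 10. Per length, Fry had 8.71 summits and Pde4d 2.19 per 100 kb. At the other end were long genes with no summit at all. Nrg3, a neuregulin gene of the nervous system, had none in 1104 kb, Cntnap5c none in 641 kb and Fstl5 none in 636 kb. They were followed by 1700007B14Rik, Skint5, Edil3, Kcnh7, Khdrbs2, Dok6 and Gpr158, with lengths down to 463 kb.

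Autosomes were ordered by the number of protein-coding genes per Mb of sequenced bases. The 6 gene-dense autosomes (7, 11, 19, 17, 9 and 2) had 12.2 genes per Mb and the 6 gene-poor ones (13, 16, 3, 1, 12 and 18) had 6.62. Over all autosomes there were 28.0 CTCF peaks per Mb. Gene-dense autosomes had 33.2 (29.3 to 43.0 on the separate autosomes) and gene-poor ones 23.1 (21.3 to 24.2), a ratio of 1.43, and the ranges did not overlap. Chromosome 11 had the most with 43.0 per Mb, then chromosome 19 with 38.5, and chromosome 3 the fewest with 21.3. Chromosome 7 had the most genes, 14.6 per Mb, but 29.7 peaks per Mb. It carries large receptor clusters, as does chromosome 2, and the part of these clusters was not tested. Across the 19 autosomes the correlation of gene and peak density was 0.814 (Pearson) and 0.877 (Spearman), and without chromosomes 11 and 7, the farthest from the median, Pearson's r was 0.879. These points share 1 pool and 1 depth, and GC content moved with both: its r was 0.850 with gene density and 0.889 with peak density. The part of GC content was not tested.

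Median strength was close in the groups of autosomes, with a Pearson r of −0.108 between gene density and median fold enrichment, −0.300 without chromosomes 11 and 7, and −0.450 between GC content and median fold enrichment. The median fold enrichment was 6.02 on gene-dense and 6.05 on gene-poor autosomes, a difference of −0.0246, and the separate autosomes ranged from 5.78 to 6.32 and from 5.87 to 6.32. The difference became −0.349 for peaks with a −log10 q of at least 10 and 0.184 without promoter summits. Peaks of 20 or more made up 8.83% and 9.23%. The larger number of peaks on gene-dense autosomes was in part promoter peaks, 22.9% against 18.6%, although promoters themselves were bound at like density, with 237 and 252 summits per Mb of promoter. Per Mb of the same feature, gene-dense autosomes had more summits in intergenic sequence (20.4 against 14.4) and in introns (32.2 against 26.8). Relative to genes the order was opposite, with 2.72 peaks per gene on gene-dense and 3.50 on gene-poor autosomes.

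**Figure D5:**
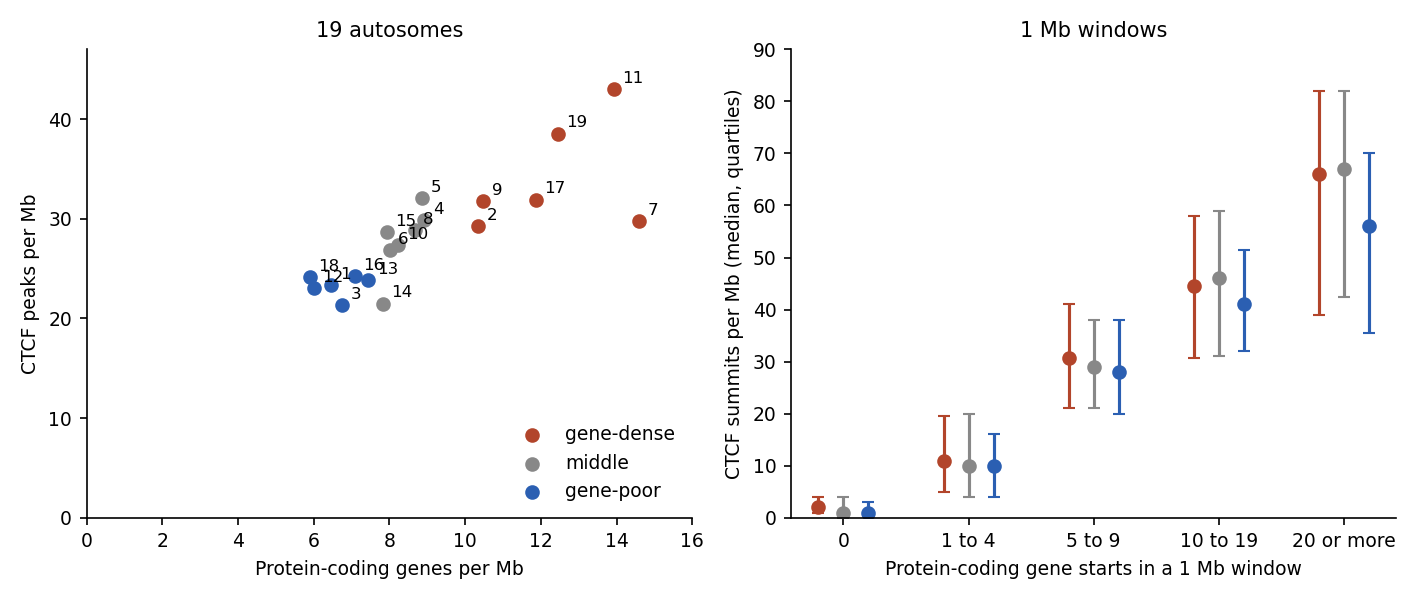
Left, CTCF peaks per Mb against protein-coding genes per Mb for the 19 autosomes, labelled by number. Right, summits per Mb in 1 Mb windows by the number of protein-coding gene starts in the window (points are medians, bars quartiles over windows) for gene-dense, middle and gene-poor autosomes. The quartile ranges of the 3 groups of autosomes overlap within each class of windows (medians of 66, 67 and 56.0 at 20 or more starts on gene-dense, middle and gene-poor autosomes).

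The relation was also described in windows of 1 Mb. Of 2401 windows, those without a gene start had 2.83 summits per Mb, those with 1 to 4 had 13.05, with 5 to 9 had 30.5, with 10 to 19 had 43.3, and with 20 or more had 58.8. The ratio of the last class to the first was 20.8, and it was 14.7 when promoter summits were left out. The groups of autosomes were compared within each class. Windows without a gene start had 3.41 summits per Mb on gene-dense, 2.74 on middle and 2.60 on gene-poor autosomes, and those with 1 to 4 had 14.02, 13.1 and 12.3. Windows with 5 to 9 gene starts had 31.8, 30.3 and 29.6, those with 10 to 19 had 42.4, 45.4 and 41.3, and those with 20 or more had 59.0, 61.6 and 51.6. The richest window, on chromosome 10 from 79000001 to 80000000, had 125 summits and 60 gene starts, among them Bsg, Cirbp and the serine protease gene Cfd. Its neighbour had 122 summits and 59 starts. Another rich window had fewer gene starts than these 2, with 114 summits and 15 starts around Cebpb, Snai1 and Ptpn1 on chromosome 2.

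Windows without a peak numbered 126 of 2401. Of the 291 windows with 20 or more gene starts, 12 had no peak, and of the 257 without a gene start, 62 had none. The 12 gene-rich windows held 341 genes, of which 128 were olfactory receptors, 43 vomeronasal receptors and 131 had provisional Gm names, and the window on chromosome 13 from 27000001 held 21 genes of the prolactin family (Prl), hormones of the placenta and pituitary. Long stretches without a summit included gene-rich ones: 4.36 Mb on chromosome 7 with 109 genes, most of them vomeronasal receptors, and 3.12 Mb on chromosome 17 with 42 genes, most of them olfactory receptors. Others were nearly free of genes, such as 3.59 Mb on chromosome 14 with 0 genes and 3.53 Mb on chromosome 1 with 2, the cadherin genes Cdh7 and Cdh19. In all, 179 distances between neighbouring summits were 1 Mb or more, 315 Mb together with unsequenced bases included. Reads with more than 1 place in the genome were excluded upstream, and the part of this in the gene-rich windows without a peak was not tested.

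The median distance between neighbouring summits was 11.9 kb (quartiles 5.09 and 28.5 kb), while the mean was 35.9 kb. It was 10.97 kb on gene-dense and 14.0 kb on gene-poor autosomes. Of 66991 pairs, 4831 (7.21%) were under 1 kb apart and 179 were 1 Mb or more apart. The number of pairs was not smooth around 5 kb: 2406 pairs were 4 to 5 kb apart and 3153 were 5 to 6 kb apart. The step was mainly in pairs with a strong member. Pairs whose stronger peak had a fold enrichment of 15 or more went from 497 to 1110, or from 20.7% (19.1 to 22.3%) to 35.2% (33.6 to 36.9%) of pairs, while pairs whose stronger peak was under 5 went from 561 to 629. MACS2 scores a position against the read density around it, and the part of this scoring in the step was not tested.

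Neighbouring motifs were compared by orientation. A pair is convergent when the motifs point towards each other, with the left one on the plus strand and the right one on the minus strand, which is the arrangement known from loop anchors. Along a chromosome the changes of strand must alternate, so convergent and divergent pairs are equally frequent by construction (24.7% each of 29327 pairs), and only their distances carry information. These differed. Convergent pairs made up 17.8% (14.5 to 21.6%) of the pairs under 1 kb apart, 18.6% (17.7 to 19.6%) of those 1 to 10 kb apart and 33.2% (32.0 to 34.5%) of those 100 kb or more apart, whereas divergent pairs made up 22.3% (18.7 to 26.4%), 28.1% (27.0 to 29.3%) and 18.0% (17.02 to 19.1%) of these classes. Pairs on the same strand went from 59.9% (55.3 to 64.4%) under 1 kb to 48.8% (47.4 to 50.1%) at 100 kb or more.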

How the data were processed

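CTCF was measured by ChIP-seq in liver of female mice, as a pool of 4 libraries. Bowtie2 was used by the authors for alignment to mm9, reads without a unique position were discarded, and they called peaks with MACS2 and removed peaks in blacklisted regions or made only of duplicate reads. The deposited list gives, per peak, a fold enrichment over local background (a ratio), a −log10 q-value and the summit, all used as deposited; the depth behind them is not in the list, and a deeper pool gives more peaks. The Rad21 list was not analysed here. Columns of separate libraries left unused numbered 0. Of the peaks that the naming rule selects, 1 is not reported here.

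Genome sequence and the GENCODE annotation of the same build (NCBIM37) supplied features, gene density per sequenced Mb and motifs. The 20 bp matrix was learned within 50 bp of 1000 summits of odd or even autosomes and applied to the others. There are no replicates and no tests. Intervals are Wilson intervals at the 95% level. Features, distances, spacing and the motif learner were tested on simulated data. Python 3.11.15, numpy 2.4.6, pandas 2.3.3, statsmodels 0.14.6 and matplotlib 3.10.9 were used.

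Members, lists and alternatives were chosen with earlier results of these data known. Named genes follow a rule: the strongest peak of each autosome, the 15 genes with the strongest promoter summits, the 10 genes with most summits and the 10 longest with none, and members of the lists and families; the richest windows, the longest empty stretches, the widest peaks, the H19 locus and the Hox clusters were added after values were seen. Families were taken by the start of the gene symbol alone. Alternatives were a −log10 q of at least 10, other distances to a start, other gene sets, groups, windows and chromosomes, and other motif settings.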

Additional observations from a re-analysis of the deposited data

Results flagged for a closer look

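Data outside the autosomes held signal. Chromosome X had 1650 CTCF peaks, 10.2 per Mb of sequenced bases against 21.3 to 43.0 on the autosomes. Its peaks were not weaker, with a median fold enrichment of 7.70 (quartiles 4.40 and 14.1), and their median spacing was 26.4 kb. Chromosome X has 5.75 protein-coding genes per Mb, fewer than any autosome. The mitochondrial genome, 16.3 kb long, had 7 peaks, 282 to 1268 bp wide, with fold enrichments of 2.35 to 6.65. Their origin was not tested. No control values of these chromosomes were used here.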

How the results depend on the processing

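Of 44 alternatives for 13 results, 11 moved a value by less than its interval (for correlations, by less than 0.1) and 33 by more; no ratio of densities fell below 1. No paired analysis was possible because the 4 libraries were pooled into 1 list, which holds no value per library, and leaving out a library was not possible for the same reason.

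With a −log10 q of at least 10, there were 20.4 peaks per Mb (from 28.0), the median fold enrichment was 8.98 (from 6.03), width 449 bp (from 402 bp), spacing 17.04 kb (from 11.9 kb), promoter summits 21.4%, intergenic summits 36.6%, the gene-dense to gene-poor ratio 1.47 (from 1.43), the difference in median fold enrichment −0.349 (from −0.0246), peaks with a motif 54.5% (from 44.6%) and bound promoters 45.3% (from 52.4%). On all chromosomes there were 26.9 peaks per Mb at 12.1 kb spacing. With unsequenced bases counted, there were 27.1 per Mb, and with summits under 500 bp apart merged the spacing was 12.3 kb. Promoter summits were 16.8% at 500 bp, 25.9% at 2.5 kb, 23.8% with all annotated genes and 21.5% with any base of the peak counted, against 20.5%. Bound promoters were 47.6%, 58.6% and 38.5% for the first 3 of these. Intergenic summits were 37.1% with protein-coding genes only.

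The density ratio was 1.50 for 5 against 5 autosomes, 1.38 with all annotated genes and 1.36 without promoter summits, where the difference in median fold enrichment was 0.184, of opposite sign. The window ratio of 20.8 was 14.2 in 500 kb windows and 14.7 without promoter summits. A motif was called in 61.6% at the 5% threshold, 46.3% within 50 bp and 43.1% on odd autosomes. Convergent pairs were 24.2% at the 5% threshold and 22.7% up to 100 kb, against 24.7%. Without replicates or depth, no value has an error between mice, and the limit of detection of weak peaks cannot be given.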

Other observations

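Of the 6028 peaks with a fold enrichment of 20 or more, 1149 (19.1%) had no called motif. Of these, 296 (25.8%) lay in a promoter. Examples with high fold enrichment, chosen after values were seen, were an intronic peak of Mamdc2 (33.4) and promoter peaks at Vps18 (32.5), the ribosomal protein gene Rps3a (32.1) and the RNA helicase gene Ddx47 (32.0). The promoter peak at Erlin2 had 31.9. Of the peaks of 20 or more, 50.4% were intergenic.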
